A study of Mus musculus with 20 samples.

Results

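A set of 10 genes that coat, fill or empty the lipid droplet were followed in mouse gastrocnemius, a calf muscle of mostly fast fibres. They were 5 perilipins (Plin1 to Plin5), the lipase genes Pnpla2 and Lipe, the lipase activator gene Abhd5 and the acyltransferase genes Dgat1 and Dgat2, 10 of the 19938 genes tested. The genes were chosen by function, with earlier results of these data known, among them the rise of Plin3 in NCoR1-MKO and of Plin5 in PGC-1alpha-mTg, so these 2 values are given as descriptions without a p-value. All 10 were measured, each by 1 probe set, selected on the brightest mean where a gene had several. No filter on low values was used.

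The study used 20 Affymetrix arrays of adult male C57BL/6 mice, in 4 groups of 5. NCoR1-MKO mice lack the nuclear receptor corepressor NCoR1 in muscle, and CON mice were their controls. PGC-1alpha-mTg mice carry a transgene for the coactivator PGC-1alpha in muscle, and WT mice were their controls. The genotype of CON, the Cre line, the promoter of the transgene and the exact age are not given in the sources used here. Nor do the labels state that the 5 arrays of a group hold 5 separate mice, and the p-values measure the spread between arrays only. Values are RMA expression values on the log2 scale, and a change is the difference of 2 group means on that scale, given ± SE with n = 5 in each group. The SE uses a spread per gene shared by all 20 arrays of both cohorts, so it is the same in the 2 comparisons. A level of one gene cannot be set against that of another. The 2 cohorts differed in their value distributions (array medians of 6.03 to 6.08 for NCoR1-MKO with CON and 5.84 to 5.91 for PGC-1alpha-mTg with WT), so levels were compared only within a cohort. Whether a cell carried less of a transcript or fewer cells carried it cannot be told apart in whole muscle. Rose and fell are used of changes with a limma adjusted p under 0.05 over all genes.

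Muscle fibres store triglyceride in droplets that lie beside mitochondria and feed them fatty acids. Perilipins cover the droplet surface and control which lipases reach it. Triglyceride is cut to diacylglycerol by adipose triglyceride lipase (Pnpla2) with its activator CGI-58 (Abhd5), then to monoacylglycerol by hormone-sensitive lipase (Lipe), while the enzymes of Dgat1 and Dgat2 add the last fatty acid in synthesis. Plin1 and Lipe are abundant in fat cells, and Plin5 is the perilipin of oxidative tissues.

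The sequences just before the transcription start are shown for the 5 genes whose PGC-1alpha-mTg and WT arrays did not overlap (Plin2, Plin3, Plin5, Pnpla2 and Abhd5). Each is the 250 bases before the RefSeq start, 5′ to 3′ on the gene's own strand, from build GRCm38.p6, with capitals marking the nuclear receptor half-site AGGTCA on either strand, and for Plin5 the outer of 2 starts is shown.
Plin5, chr17:56117549-56117798, minus strand: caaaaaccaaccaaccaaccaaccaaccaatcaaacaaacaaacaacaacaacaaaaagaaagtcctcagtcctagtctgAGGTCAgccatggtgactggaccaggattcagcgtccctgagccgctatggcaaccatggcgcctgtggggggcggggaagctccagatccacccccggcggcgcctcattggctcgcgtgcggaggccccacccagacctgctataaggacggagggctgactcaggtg
Pnpla2, chr7:141454938-141455187, plus strand: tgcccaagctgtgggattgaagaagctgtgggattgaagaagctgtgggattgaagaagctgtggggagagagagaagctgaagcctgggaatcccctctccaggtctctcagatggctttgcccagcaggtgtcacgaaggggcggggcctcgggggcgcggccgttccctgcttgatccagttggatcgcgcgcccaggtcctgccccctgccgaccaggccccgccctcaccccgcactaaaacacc
Abhd5, chr9:122351366-122351615, plus strand: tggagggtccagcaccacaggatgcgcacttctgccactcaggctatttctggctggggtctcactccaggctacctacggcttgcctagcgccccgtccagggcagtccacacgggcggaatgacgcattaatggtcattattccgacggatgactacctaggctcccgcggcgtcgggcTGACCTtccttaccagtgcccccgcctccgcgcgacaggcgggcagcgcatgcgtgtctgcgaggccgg
Plin2, chr4:86670060-86670309, minus strand: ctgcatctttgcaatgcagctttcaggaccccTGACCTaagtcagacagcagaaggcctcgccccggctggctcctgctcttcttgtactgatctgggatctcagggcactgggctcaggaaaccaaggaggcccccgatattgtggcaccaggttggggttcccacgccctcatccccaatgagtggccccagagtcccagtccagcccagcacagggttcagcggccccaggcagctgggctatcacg
Plin3, chr17:56290512-56290761, minus strand: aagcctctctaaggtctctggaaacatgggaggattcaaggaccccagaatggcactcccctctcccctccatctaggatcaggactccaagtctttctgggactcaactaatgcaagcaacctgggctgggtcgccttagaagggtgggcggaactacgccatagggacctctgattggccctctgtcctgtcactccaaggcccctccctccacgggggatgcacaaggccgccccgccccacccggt

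The half-site was found once in the windows shown for Plin5, Abhd5 and Plin2 and not in those of Plin3 and Pnpla2. The window of the inner Plin5 start, which is not shown, did not hold it. Counted back from the start, the half-site began at position -170 in Plin5, -69 in Abhd5 and -218 in Plin2. Windows were at hand for 8 of the 10 genes (10 windows, since Lipe and Plin5 have 2 each), and 3 of these 10 held the half-site, against 14.0% of 32851 windows in the genome. The extended form TCAAGGTCA, which contains the half-site and which estrogen-related receptors are known to bind, was in 0 of the 10 and in 0.387% of all windows. The repeat AGGTCANAGGTCA, which contains it at both ends and is bound by PPAR with RXR, was also in 0 of the 10 and in 0.0335% of all windows. A match of letters is not a measured binding site, and a window without one says nothing about more distant sites.

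Of the 10 genes, Plin3 and Pnpla2 were called in NCoR1-MKO against CON, both higher, where 1.31% of all genes were higher and 1.32% lower. In PGC-1alpha-mTg against WT 4 were higher (Plin5, Pnpla2, Abhd5 and Lipe), where 11.9% of all genes were higher. Plin2 and Plin3 were lower there, as were 16.1% of all genes. The groups did not overlap for 2 of the 10 genes in the knockout comparison (4.17% of all genes) and for 5 of the 10 in the transgenic one (19.9% of all genes). The median change of the 10 was 0.06 in the knockout and 0.21 in the transgenic mice, beside 0.001 and 0.02 over all genes. Since the genes were put together with these comparisons in view, the counts describe them and test nothing about them as a group. The counts include Plin3 in NCoR1-MKO and Plin5 in PGC-1alpha-mTg, whose rises were known beforehand and are descriptions only.

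**Figure D1:**
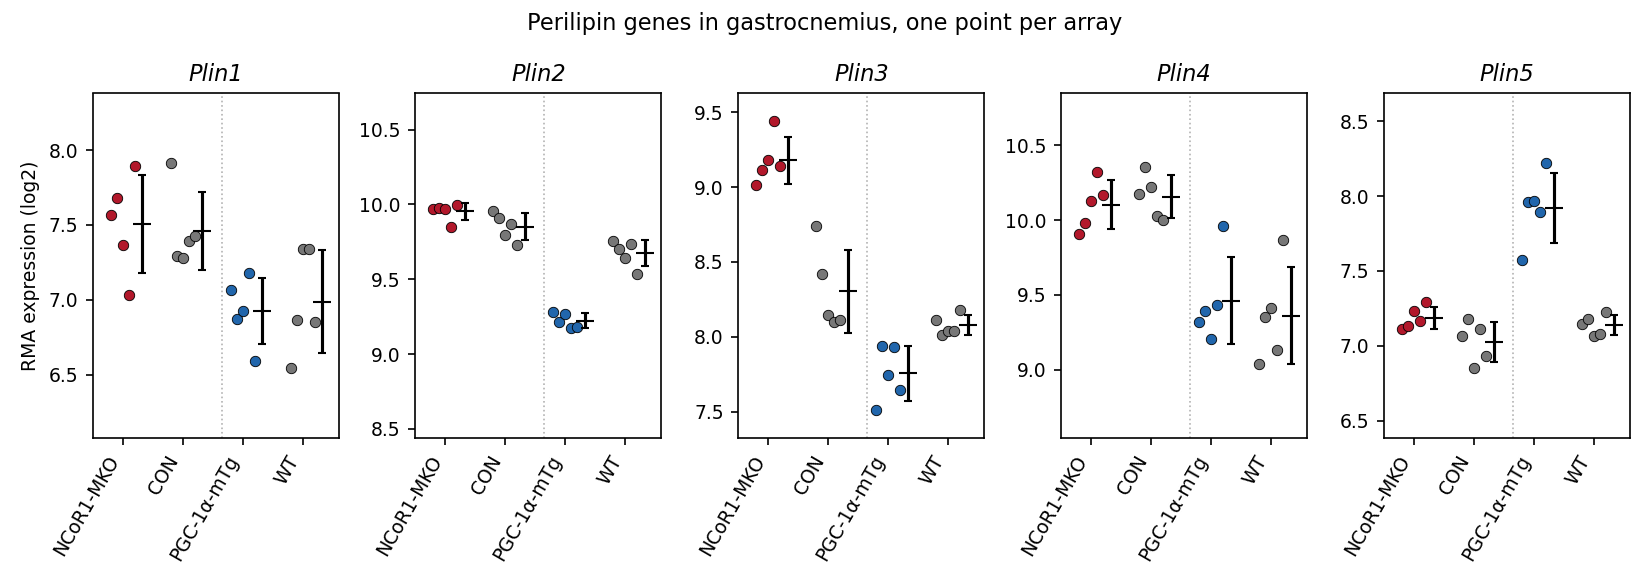
RMA expression (log2) of the 5 perilipin genes, with 1 point for each array, and the mean ± SD (n = 5) as a bar beside each group. Every panel spans the same height, the dotted line parts the 2 cohorts, and Plin3 is high in NCoR1-MKO (9.02 to 9.44) while Plin5 is high in PGC-1alpha-mTg (7.57 to 8.22).

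Plin3 encodes TIP47, a perilipin that moves from the cytosol onto new droplets. It read 9.02, 9.12, 9.18, 9.44 and 9.14 on NCoR1-MKO arrays 1 to 5, against 8.74, 8.42, 8.15, 8.10 and 8.11 on the CON arrays. Every knockout array lay above every CON array, and CON 1 was the highest of its group. The means were 9.18 ± 0.16 in NCoR1-MKO and 8.30 ± 0.28 in CON (SD, n = 5 each), a change of 0.87 ± 0.11 or 1.83-fold. With any 1 array left out the change lay between 0.81 and 0.98. In the other model Plin3 ran the other way. It read 7.51, 7.94, 7.75, 7.93 and 7.64 in PGC-1alpha-mTg, against 8.11, 8.01, 8.04, 8.04 and 8.18 in WT. All 5 transgenic arrays lay below all 5 WT arrays, but the gap between PGC-1alpha-mTg 2 and the lowest WT array was narrow, and the transgenic arrays were the more spread (SD 0.185 in PGC-1alpha-mTg and 0.0665 in WT). Plin3 fell there by 0.32 ± 0.11 on the log2 scale (limma adjusted p = 0.0262), a call that was lost without WT 1, WT 5, PGC-1alpha-mTg 1 or PGC-1alpha-mTg 5 (adjusted p up to 0.0795). Its change in the knockout exceeded that in the transgenic mice by 1.20 ± 0.15.

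Plin5 encodes the perilipin that ties droplets to mitochondria in muscle, heart and liver. It read 7.57, 7.96, 7.96, 7.89 and 8.22 in PGC-1alpha-mTg, against 7.15, 7.18, 7.06, 7.08 and 7.22 in WT. The lowest transgenic array was still above the highest WT array. The change was 0.78 ± 0.08, or 1.72-fold (7.92 ± 0.23 in PGC-1alpha-mTg and 7.14 ± 0.07 in WT, SD, n = 5 each), and stayed between 0.71 and 0.87 with any 1 array left out. In the knockout Plin5 read 7.11, 7.13, 7.23, 7.17 and 7.29, against 7.06, 7.18, 6.85, 7.11 and 6.93 in CON. The ranges overlapped, and the change of 0.16 ± 0.08 did not pass (limma adjusted p = 0.490, 95% interval -0.01 to 0.33). The change in NCoR1-MKO was lower than that in PGC-1alpha-mTg, by -0.62 ± 0.12.

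Plin2 encodes adipophilin, which coats droplets in most tissues and is broken down when no lipid holds it there. It read 9.28, 9.21, 9.27, 9.17 and 9.18 in PGC-1alpha-mTg, against 9.76, 9.70, 9.64, 9.74 and 9.54 in WT. No transgenic array reached the lowest WT array. Plin2 fell by 0.45 ± 0.05 on the log2 scale (limma adjusted p = 2.41e-07) and kept this call whichever array was left out. In the knockout it read 9.97, 9.97, 9.97, 9.85 and 9.997, against 9.95, 9.91, 9.79, 9.87 and 9.73 in CON. These groups overlapped, and the change of 0.10 ± 0.05 did not pass (limma adjusted p = 0.450, 95% interval -0.003 to 0.20). The 2 models differed for Plin2 by 0.55 ± 0.07, knockout minus transgenic (limma adjusted p = 6.06e-06).

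Plin1, the perilipin of fat cell droplets, and Plin4, which coats small droplets in fat and muscle, passed in neither comparison. Plin1 averaged 7.51 ± 0.33 in NCoR1-MKO and 7.46 ± 0.26 in CON (SD, n = 5 each), a change of 0.046 ± 0.16 (limma adjusted p = 0.974, 95% interval -0.29 to 0.38). In the other cohort it averaged 6.93 ± 0.22 in PGC-1alpha-mTg and 6.99 ± 0.35 in WT, a change of -0.062 ± 0.16 (limma adjusted p = 0.827, 95% interval -0.40 to 0.28). Its arrays were widely spread in every group, and intervals of this width leave room for changes larger than that of Plin3 in the transgenic mice. Plin4 averaged 10.10 ± 0.16 in NCoR1-MKO and 10.16 ± 0.15 in CON (change -0.054 ± 0.14, limma adjusted p = 0.963). It averaged 9.46 ± 0.29 in PGC-1alpha-mTg and 9.36 ± 0.32 in WT (change 0.10 ± 0.14, limma adjusted p = 0.645). PGC-1alpha-mTg 5 and WT 5 were the highest Plin4 arrays of their groups, at 9.96 and 9.87.

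Plin4, Plin5 and Plin3 lie close together on chromosome 17 by the gene order of the RefSeq table (GRCm38.p6). Plin4 and Plin5 are next to each other, and 7 other protein-coding genes stand between Plin5 and Plin3, all of them measured. Of these 7, 1 was higher and 0 were lower in the knockout (6 of 7 changes positive), beside 1.31% and 1.32% of all genes. In the transgenic mice 2 were higher and 0 lower (5 of 7 positive), beside 11.9% and 16.1% of all genes. Their median change was 0.06 in the knockout and 0.02 in the transgenic mice, beside 0.001 and 0.02 over all genes. The 3 perilipins thus had 3 different patterns over the 2 models, with Plin4 called in neither.

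**Figure D2:**
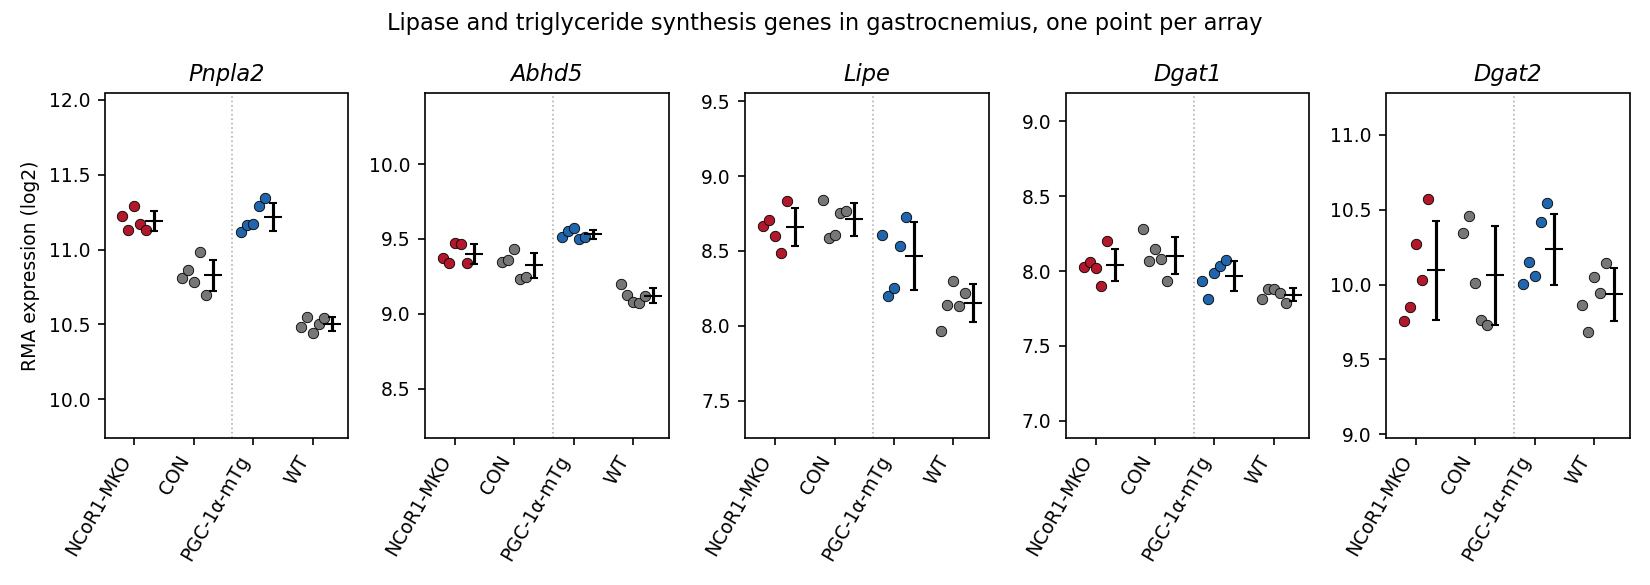
RMA expression (log2) of Pnpla2, Abhd5, Lipe, Dgat1 and Dgat2, with 1 point for each array and the mean ± SD (n = 5) beside each group. Panels span the same height, and Pnpla2 is higher in NCoR1-MKO than in CON and in PGC-1alpha-mTg than in WT, with no overlap in either cohort.

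Pnpla2 was the gene among the 10 that rose in both models. It read 11.22, 11.13, 11.29, 11.17 and 11.13 in NCoR1-MKO, against 10.81, 10.86, 10.79, 10.98 and 10.70 in CON. It read 11.12, 11.16, 11.17, 11.29 and 11.35 in PGC-1alpha-mTg, against 10.48, 10.55, 10.44, 10.50 and 10.54 in WT. The mutant arrays lay above all of their controls in each cohort. The rise was 0.36 ± 0.05, or 1.29-fold, in the knockout (limma adjusted p = 0.000232) and 0.72 ± 0.05, or 1.64-fold, in the transgenic mice (limma adjusted p = 5.14e-10). Both calls held with any 1 array left out. The rise in the knockout was the smaller, by -0.35 ± 0.08 (limma adjusted p = 0.00205 for the difference).

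Abhd5 encodes CGI-58, which perilipins hold back and release to switch the Pnpla2 lipase on. It read 9.51, 9.55, 9.57, 9.50 and 9.51 in PGC-1alpha-mTg, against 9.20, 9.13, 9.08, 9.07 and 9.12 in WT. The groups were tight and well apart, and the gene rose by 0.41 ± 0.04, or 1.33-fold (limma adjusted p = 1.67e-07). In the knockout it read 9.37, 9.34, 9.47, 9.47 and 9.34, against 9.35, 9.36, 9.43, 9.23 and 9.24 in CON. The ranges overlapped, and the change of 0.074 ± 0.04 did not pass (limma adjusted p = 0.595, 95% interval -0.02 to 0.17). The difference of the 2 changes was -0.34 ± 0.06, knockout minus transgenic (limma adjusted p = 0.000529).

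Lipe, which encodes hormone-sensitive lipase, read 8.60, 8.20, 8.25, 8.53 and 8.73 in PGC-1alpha-mTg, against 7.97, 8.14, 8.30, 8.13 and 8.22 in WT. PGC-1alpha-mTg 2 and 3 lay within the WT range, and the other 3 transgenic arrays above it. The gene rose by 0.31 ± 0.09, or 1.24-fold (limma adjusted p = 0.0103), and the call held with any 1 array left out. In the knockout Lipe averaged 8.66 ± 0.13, against 8.71 ± 0.11 in CON (SD, n = 5 each), a change of -0.052 ± 0.09 (limma adjusted p = 0.934, 95% interval -0.24 to 0.13). The difference between the models, -0.36 ± 0.13 (knockout minus transgenic), missed the threshold (limma adjusted p = 0.0549).

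Neither acyltransferase gene passed in either comparison. Dgat1 averaged 8.04 ± 0.11 in NCoR1-MKO and 8.10 ± 0.13 in CON (change -0.062 ± 0.06, limma adjusted p = 0.831). It averaged 7.97 ± 0.10 in PGC-1alpha-mTg and 7.84 ± 0.04 in WT (change 0.13 ± 0.06, limma adjusted p = 0.145, 95% interval -0.003 to 0.25). Dgat2 averaged 10.10 ± 0.33 in NCoR1-MKO and 10.06 ± 0.33 in CON (change 0.034 ± 0.15, limma adjusted p = 0.980), among the widest spreads of the 10 genes. In PGC-1alpha-mTg it averaged 10.24 ± 0.24, against 9.94 ± 0.18 in WT (change 0.30 ± 0.15, limma adjusted p = 0.163, 95% interval -0.02 to 0.62). The difference of the 2 changes did not pass for Dgat1 (-0.19 ± 0.09, limma adjusted p = 0.171) or Dgat2 (-0.27 ± 0.22, limma adjusted p = 0.486).

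**Figure D3:**
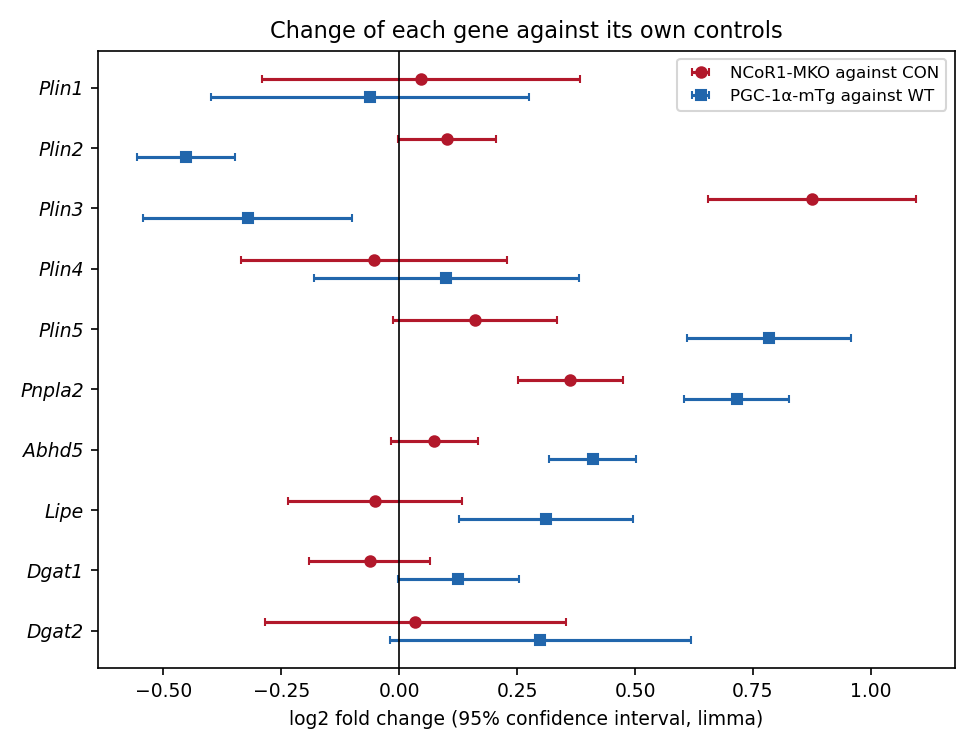
Log2 fold change of each of the 10 genes in NCoR1-MKO against CON (circles) and in PGC-1alpha-mTg against WT (squares), with the 95% confidence interval of the limma fit (n = 5 in each group). Plin3 lies on opposite sides of 0 in the 2 models (0.87 and -0.32), Pnpla2 lies above 0 in both (0.36 and 0.72), and the intervals of Plin1 and Plin4 span 0 in both. The intervals of Plin3 in NCoR1-MKO and of Plin5 in PGC-1alpha-mTg are descriptions only, since those rises were known beforehand.

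The 2 models were then set against each other by testing the difference of their changes, which share no control array. Of the 10 genes 5 passed (Plin2, Plin3, Plin5, Pnpla2 and Abhd5), where 15.2% of all genes did. The differences of Plin3 and Plin5 rest on the changes that were known beforehand and are descriptions. For Plin2, Pnpla2 and Abhd5 p-values are given, though all 10 genes were chosen with earlier results of these data known. For Plin2 and Plin3 the change was the higher one in the knockout. For Plin5, Pnpla2 and Abhd5 it was the higher one in the transgenic mice. The lipolytic genes Pnpla2 and Abhd5 and the mitochondrial perilipin gene Plin5 stood higher in PGC-1alpha-mTg than in WT, beside lower Plin2 and Plin3, whereas in the knockout Pnpla2 and Plin3 were higher than in CON and the Plin2 change did not pass.

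**Figure D4:**
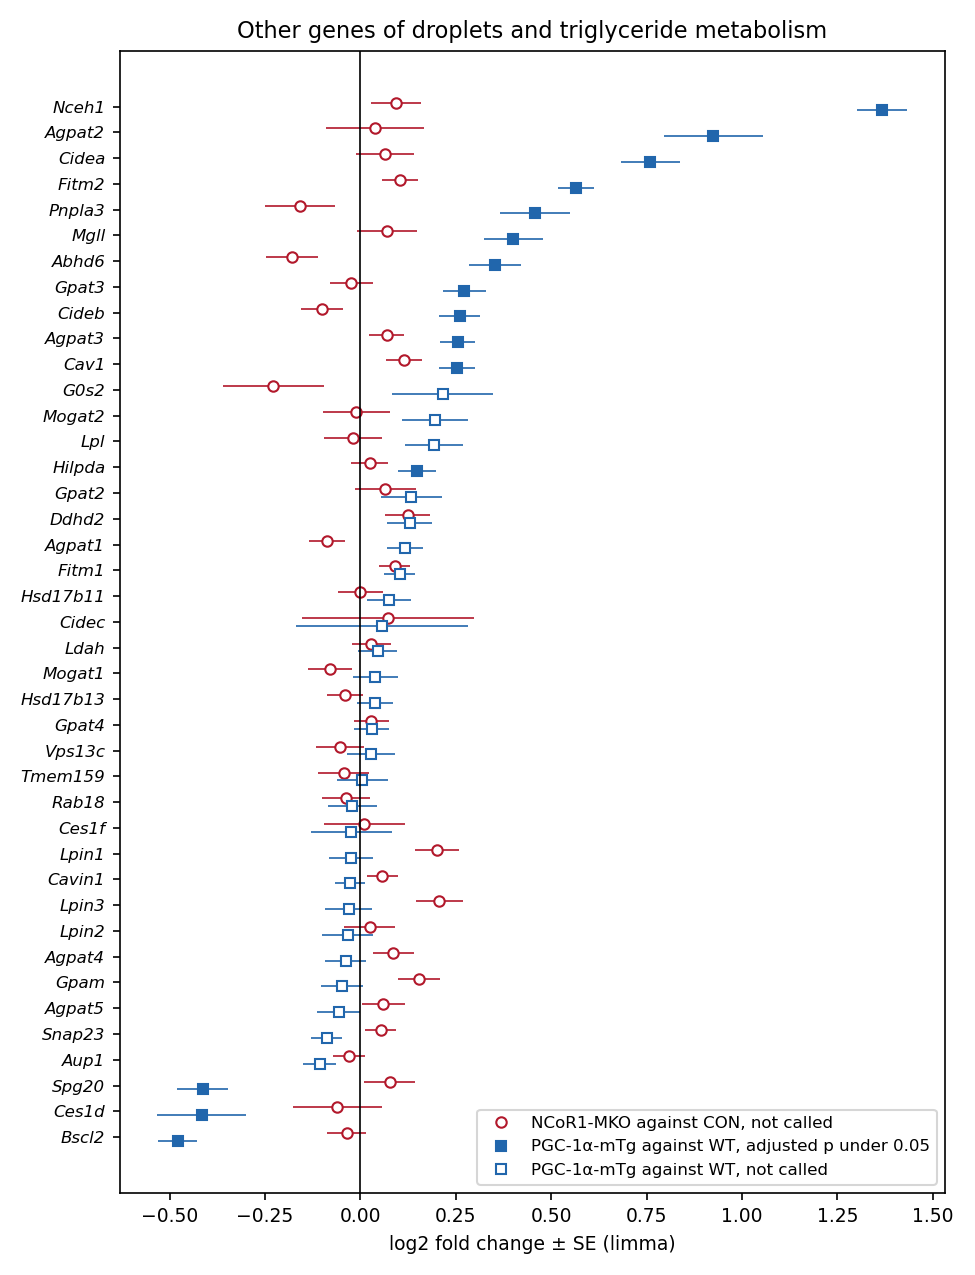
Log2 fold change ± SE (limma, n = 5 in each group) of 41 further genes of droplets and neutral lipid metabolism, ordered by their change in PGC-1alpha-mTg against WT (squares), with NCoR1-MKO against CON as circles. Filled symbols mark an adjusted p under 0.05, and all of the circles are open, while 12 squares are filled to the right of 0 and 3 to the left.

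A list of 46 further genes of droplet formation, triglyceride synthesis and lipolysis was read beside the 10, and 41 of them were measured. In the knockout 0 of the 41 passed the limma test, where 1.31% of all genes were higher and 1.32% lower. At an unadjusted limma p under 0.05 there were 8, and the median change was 0.03, beside 0.001 over all genes. The smallest p-values belonged to the phosphatidate phosphatase genes Lpin1 (0.20 ± 0.06, limma adjusted p = 0.0727) and Lpin3 (0.21 ± 0.06, limma adjusted p = 0.0872). Without NCoR1-MKO 5 both passed, with limma adjusted p = 0.0352 for Lpin1 and 0.0139 for Lpin3. In the transgenic mice 12 of the 41 rose and 3 fell, where 11.9% of all genes were higher and 16.1% lower. The median change was 0.06, beside 0.02 over all genes.

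Most changed was Nceh1, a neutral cholesterol ester hydrolase. It averaged 10.77 ± 0.05 in PGC-1alpha-mTg, against 9.40 ± 0.11 in WT (SD, n = 5 each), a rise of 1.37 ± 0.07 or 2.58-fold (limma adjusted p = 6.41e-13). The acyltransferase gene Agpat2, which makes phosphatidic acid, rose by 0.92 ± 0.13 (8.33 ± 0.06 in PGC-1alpha-mTg and 7.41 ± 0.13 in WT). Agpat3 of the same family rose by 0.26 ± 0.05. Among droplet proteins Cidea, which promotes droplet growth, rose by 0.76 ± 0.08 (5.61 ± 0.20 in PGC-1alpha-mTg and 4.85 ± 0.06 in WT). Both Cidea means lay below the array medians of that cohort (5.84 to 5.91). Fitm2, which helps droplets bud from the endoplasmic reticulum, rose by 0.56 ± 0.05. The monoacylglycerol lipase gene Mgll rose by 0.40 ± 0.08 and Abhd6, another monoacylglycerol hydrolase gene, by 0.35 ± 0.07. Cav1, the caveolin of the plasma membrane, rose by 0.25 ± 0.05. Bscl2, which encodes seipin, a protein of the site where droplets form, fell by 0.48 ± 0.05 on the log2 scale (8.57 ± 0.10 in PGC-1alpha-mTg and 9.05 ± 0.06 in WT). Spg20 (spartin), a droplet-binding protein, fell by 0.41 ± 0.07, and the carboxylesterase gene Ces1d by 0.42 ± 0.12 (limma adjusted p = 0.00866). The call of Ces1d was lost without PGC-1alpha-mTg 2 and 3 (-0.31, limma adjusted p = 0.0973). Without the array of each group that was highest in fat cell markers, described next, it stood at -0.38 (limma adjusted p = 0.0525). G0s2, an inhibitor of the Pnpla2 lipase, did not pass in either model (-0.23 ± 0.13 in the knockout and 0.22 ± 0.13 in the transgenic mice, limma adjusted p = 0.573 and 0.255). Without those same arrays G0s2 passed in the transgenic mice (0.27, limma adjusted p = 0.0431). Hilpda, another such inhibitor gene, rose by 0.15 ± 0.05 in the transgenic mice (limma adjusted p = 0.0252). Its means were low, at 5.06 in PGC-1alpha-mTg and 4.91 in WT. The Hilpda call was lost under several alternatives, among them quantile normalization across the 20 arrays (limma adjusted p = 0.0543).

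Fat cells and other cells of the muscle were examined because several of the 10 genes are abundant in them. The mean of 8 muscle fibre markers per array lay between 13.34 and 13.39 in NCoR1-MKO and between 13.29 and 13.33 in CON, and between 12.88 and 12.90 in PGC-1alpha-mTg and between 12.84 and 12.90 in WT. In PGC-1alpha-mTg 2 of the 8 rose, the fast myosin gene Myh1 (0.32 ± 0.05) and the myoglobin gene Mb (0.29 ± 0.05), and 2 fell, Pvalb (-0.11 ± 0.03) and Mylpf (-0.12 ± 0.03), which encode parvalbumin and a fast myosin light chain. In NCoR1-MKO 1 of the 8 rose, Mylpf (0.14 ± 0.03, limma adjusted p = 0.0300). The part of fibre makeup in the changes of the 10 genes was not tested. Of 8 measured adipocyte markers 0 passed in the knockout by limma (1 at an unadjusted p under 0.05), and 2 rose in the transgenic mice, Fabp4 (0.33 ± 0.08) and Pparg (0.52 ± 0.08). Both are found in fat cells and in vessel cells, and which cells carried their rise was not tested. Of the 8 changes 7 were positive in the transgenic mice (median 0.13) and 6 in the knockout (median 0.05). The medians over all genes were 0.02 and 0.001. The part of fat cells in the changes of the 10 genes was not tested. The mean of the 8 ranged from 7.50 to 7.99 in NCoR1-MKO and from 7.39 to 8.04 in CON, and from 7.23 to 7.60 in PGC-1alpha-mTg and from 7.004 to 7.40 in WT. The files hold no detection call, so a low value of a marker cannot be read as absence. Adipoq (adiponectin) averaged 7.13 ± 0.26 in PGC-1alpha-mTg, against 6.88 ± 0.30 in WT (SD, n = 5 each), and 7.51 ± 0.36 in NCoR1-MKO, against 7.48 ± 0.37 in CON. Retn (resistin) averaged 8.42 ± 0.33 in PGC-1alpha-mTg and 8.28 ± 0.31 in WT, and 8.70 ± 0.34 in NCoR1-MKO and 8.63 ± 0.52 in CON. Lep (leptin) averaged 5.19 ± 0.15 in PGC-1alpha-mTg and 5.27 ± 0.20 in WT, and 5.54 ± 0.16 in NCoR1-MKO and 5.59 ± 0.41 in CON. Of 8 endothelial markers 6 rose in PGC-1alpha-mTg and 1 in NCoR1-MKO (median changes 0.40 and 0.21). At an unadjusted limma p under 0.05 there were 6 in each model, and all 8 changes were positive in both. Of 8 macrophage markers 0 passed in either by limma (1 at an unadjusted p under 0.05 in PGC-1alpha-mTg and 0 in NCoR1-MKO). Beside the counts of these marker lists, 11.9% of all genes were higher and 16.1% lower in the transgenic comparison. In the knockout one 1.31% were higher and 1.32% lower. Mean levels of the endothelial list ranged from 8.79 to 8.96 in PGC-1alpha-mTg and from 8.41 to 8.65 in WT. They ranged from 8.86 to 9.27 in NCoR1-MKO and from 8.64 to 8.87 in CON. The part of vessel cells in the changes of the 10 genes was not tested.

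**Figure D5:**
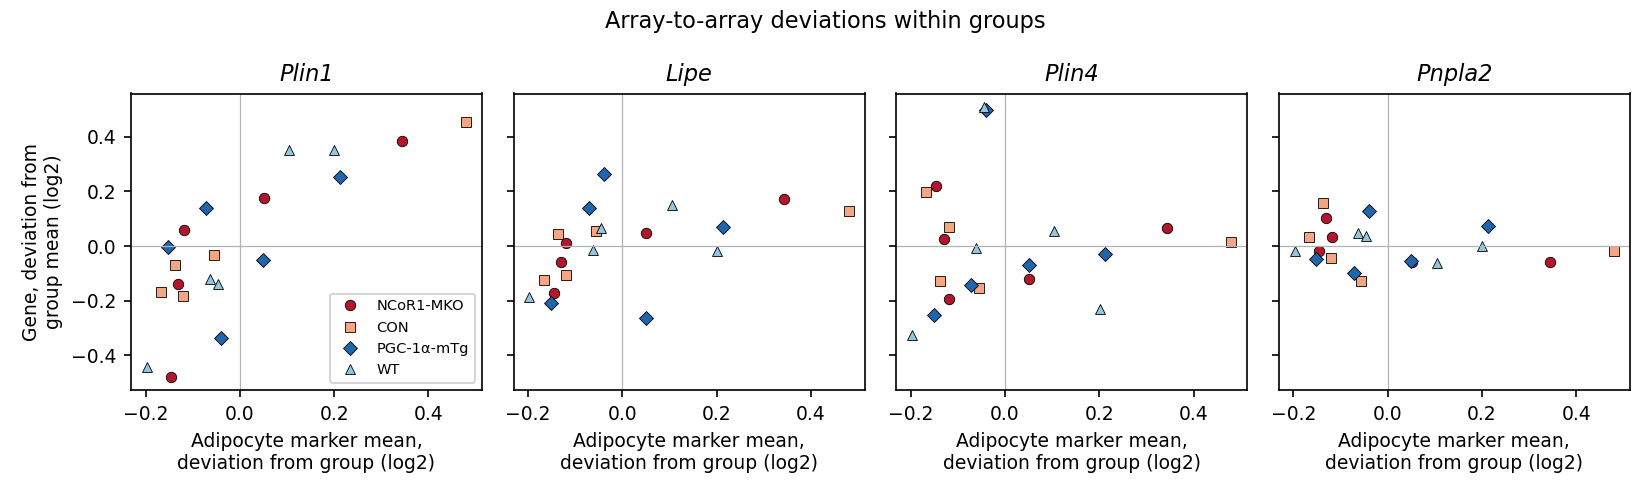
Deviation of Plin1, Lipe, Plin4 and Pnpla2 from the mean of their group (log2, vertical axis) against the deviation of the mean of 8 adipocyte markers (log2, horizontal axis), with 1 point for each of 20 arrays. Plin1 follows the markers from array to array (r = 0.81), with CON 1 and NCoR1-MKO 5 farthest to the right, and Pnpla2 does not (r = -0.18).

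Within groups, array by array, each gene's deviation from its group mean was set against that of the adipocyte markers over the 20 arrays (10 relations, permutation tests within groups with 100000 resamples, two-sided). Plin1 followed the markers, with Pearson r = 0.81 (permutation p = 6e-05, adjusted over the 10 relations 0.0006) and Spearman rho = 0.75 (permutation p = 0.0007, adjusted 0.007). Without the 2 arrays farthest from the median, CON 1 and NCoR1-MKO 5, r was 0.75. Within the cohorts r was 0.87 (NCoR1-MKO with CON) and 0.77 (PGC-1alpha-mTg with WT). Lipe was less clear, at r = 0.48 (permutation p = 0.0233, adjusted 0.0778) and rho = 0.65 (permutation p = 0.0027, adjusted 0.0135), with r = 0.35 without those 2 arrays and cohort values of 0.78 (NCoR1-MKO with CON) and 0.27 (PGC-1alpha-mTg with WT). Dgat1 had r = 0.61 (permutation p = 0.0226, adjusted 0.0778) and rho = 0.49 (permutation p = 0.0453, adjusted 0.113). It rested on the 2 arrays, without which r was 0.24. Abhd5 ran the other way, at r = -0.36 (permutation p = 0.243, adjusted 0.405) and rho = -0.53 (permutation p = 0.0300, adjusted 0.0999). Its r was -0.50 without the 2 arrays, -0.21 within NCoR1-MKO with CON and -0.80 within PGC-1alpha-mTg with WT, and it did not pass the adjustment. The other 6 had Pearson r from -0.18 (Pnpla2) to 0.47 (Dgat2), with adjusted permutation p of 0.204 or more. A further setting, chosen after the data were seen, left out the array of each group with the highest adipocyte markers. These were CON 1, NCoR1-MKO 5, PGC-1alpha-mTg 4 and WT 4. The counts of called genes stayed as they were, at 2 in the knockout, 6 in the transgenic mice and 5 for the difference. Every group lost its highest array alike, so this setting cannot show whether fat cell content that differs between groups moves the calls.

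The genes whose pattern was most like that of Plin3 and of Plin5 were looked up over the 20 arrays, after the mean of the cohort's own controls had been taken from each. For Plin3 they were Pcbd1 (r = 0.94), Ppp1r1a (r = 0.92) and Pomk (r = 0.91). Pcbd1, which encodes an enzyme of tetrahydrobiopterin recycling, had log2 changes of 1.12 ± 0.11 in the knockout and -0.50 ± 0.11 in the transgenic mice, and Ppp1r1a, a protein phosphatase inhibitor gene, of 0.67 ± 0.08 and -0.51 ± 0.08. Pomk, a kinase gene for the sugar chain of dystroglycan, stood at 0.22 ± 0.04 in the knockout and -0.074 ± 0.04 in the transgenic mice, where it did not pass (limma adjusted p = 0.241). For Plin5 they were Eci1 (r = 0.97) and Slc25a20 (r = 0.97), both of mitochondrial fatty acid oxidation, and Idnk (r = 0.97), a gluconokinase gene. In the knockout and the transgenic mice the values were 0.16 ± 0.05 and 0.53 ± 0.05 for Eci1, 0.30 ± 0.06 and 0.93 ± 0.06 for Slc25a20, and 0.14 ± 0.06 and 0.86 ± 0.06 for Idnk. In the knockout Eci1 and Idnk did not pass (limma adjusted p = 0.0855 and 0.393). The points share their groups, so these r follow the group shifts above all, and they are given without a p-value because they were picked as the highest of all genes.

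The transgene's own gene was examined as a check of the labels. Ppargc1a read 11.42 ± 0.08 in PGC-1alpha-mTg, against 9.59 ± 0.14 in WT (SD, n = 5 each), and 10.39 ± 0.07 in NCoR1-MKO, against 10.49 ± 0.13 in CON. Ncor1 was not analysed here, so the knockout label was not checked. Arrays of one group correlated over all probe sets with r from 0.987 to 0.997, the lowest being within PGC-1alpha-mTg.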

How the data were processed

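The deposited table held log2 expression values of 35556 probe sets on 20 arrays. The authors made them with RMA, and Partek is also named, per the submitters' processing notes, which give no versions. That they are in log2 follows from RMA and their range. RMA corrects background, equalises quantiles and summarises probes. Quantiles differed by 0.169 to 0.228 on average between cohorts and by at most 0.0630 within one. Whether each cohort was normalized separately was not tested. No genome build is named, and an array has no depth. The precision of a change rests on the 5 arrays of each group and on a spread per gene estimated over all 20 arrays.

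Of the probe sets 21789 carried 1 gene symbol in the platform's table, 1621 several and 12146 none. Per gene the brightest was kept, which left 19938 genes. The limma package, version 3.58.1 under R 4.3.3, fitted 4 group means to the 20 arrays with moderated, two-sided tests and Benjamini-Hochberg adjustment over all genes. The fit was tested on simulated data. The 10 genes and all lists were chosen with earlier results of these data known. The genes named are the 10, the called list genes with the smallest p (up to 8 per direction and comparison, otherwise the 2 with the smallest p), the defining adipocyte markers, Ppargc1a, and the 3 genes most like Plin3 and Plin5. G0s2, Hilpda, Fabp4, Pparg and the called muscle fibre markers were named outside this rule, after their values were seen. Promoters came from RefSeq (GRCm38.p6), which had 8 of the 10 genes.

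Alternatives were other scalings, filters, probe set rules, moderation settings, array weights, a replicate block and leaving out arrays.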

Additional observations from a re-analysis of the deposited data

Results flagged for a closer look

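The changes in the 2 models differed for Plin2, Pnpla2 and Abhd5 by the test of the difference given above. It was a limma test of knockout minus transgenic, with 5 arrays in each of 4 groups. These genes were flagged because it passed, so the flag adds no separate evidence. The difference was 0.55 ± 0.07 for Plin2, where the transgenic mice had the lower change. It was -0.35 ± 0.08 for Pnpla2 and -0.34 ± 0.06 for Abhd5, where they had the higher one. These 3 kept their call with any 1 array left out. The differences of 1.20 ± 0.15 for Plin3 and -0.62 ± 0.12 for Plin5 are given as descriptions, since they rest on changes that were known when the genes were chosen.

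Among 40 sets of 5 arrays (10 genes in 4 groups) 2 had an array far from the others by Dixon's criterion, which chance alone exceeds in about 1 of 20. CON 1 read 7.91 for Plin1, where the next CON array read 7.43, and CON 1 also had the highest adipocyte markers of its group. NCoR1-MKO 4 read 9.85 for Plin2, where the next lowest knockout array read 9.97.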

How the results depend on the processing

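The counts of called genes among the 10 stayed within 1.5 times of 2 (knockout), 6 (transgenic) and 5 (difference) under all alternatives run, and with 1 array left out they ranged from 2 to 2, 5 to 6 and 5 to 6. The list of 41 genes had 14 to 17 called in the transgenic mice and 0 to 2 in the knockout with 1 array left out, the 2 without NCoR1-MKO 5. In the knockout 1 list gene in place of 0 was called without the dimmest 40 percent of genes, with trend and robust moderation and with array weights (Lpin1 in each), and without the arrays highest in adipocyte markers (Lpin3). The fall of Plin3 in the transgenic mice was not called after quantile normalization across the 20 arrays (-0.28, limma adjusted p = 0.0679) or with array weights (-0.27, adjusted p = 0.0580). In the same mice Dgat1 was called after that quantile normalization (0.17, adjusted p = 0.0380). Dgat2 in the knockout reversed to -0.042 with array weights and to -0.013 without the arrays highest in adipocyte markers, and ranged from -0.085 to 0.13 with 1 array left out. With 1 array left out Plin1, never called, ranged from -0.050 to 0.17 in the knockout and from -0.17 to 0.026 in the transgenic mice, and Plin4 from -0.024 to 0.23 there. The difference of Lipe was called after quantile normalization (-0.41), without dim genes (-0.36), with trend and robust moderation (-0.36), with array weights (-0.34), and without PGC-1alpha-mTg 2 and 3 (-0.52, a setting chosen after the data were seen). It was also called in 6 of 20 fits with 1 array left out. The cause was not tested.

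Same-numbered arrays did not deviate together in the knockout cohort (r of deviations from -0.13 to 0.04). In the transgenic cohort r was low and mixed, at 0.20, 0.11, -0.23, 0.11 and 0.085 for numbers 1 to 5. Numbers 1 and 4 there matched best with the array of the same number. The numbers are not taken as pairs, which the values of the transgenic cohort do not settle. With the replicate block 2, 7 and 5 of the 10 genes were called, Dgat2 being added in the transgenic mice (0.30, adjusted p = 0.0177), and 0 and 14 list genes. The knockout calls of Pomk and Slc25a20 were lost (adjusted p = 0.0841 and 0.0727). The signal over background of a probe set was not given, which limits what can be said of dim genes.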
